A study of Homo sapiens with 8 samples.

Results

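The genes described here carry the symbols of the spliceosome. They were taken from both deposited poly(A) site tables as every gene whose symbol starts with SF3A, SF3B, SNRP, SNRNP, PRPF, U2AF, U2SURP or LUC7L, or with LSM or RBM followed by a digit, without RBM8A. The rule found 66 genes among the 7504 genes of both tables together, of which 62 were among the 6541 genes of the MDA-LM2 table and 58 among the 6801 genes of the sgHNRNPC table. By mRNA 3′-end sequencing, the study asked which poly(A) sites were used in 4 groups of 2 replicates each. MDA-MB-231 is a human breast cancer cell line that metastasizes poorly, and MDA-LM2 is its derivative that is highly metastatic to the lungs. HNRNPC, a nuclear protein that binds U-rich RNA, was knocked down in the sgHNRNPC samples by CRISPR interference in MDA-MB-231, and the sgControl samples carry a control guide. All 4 groups are thus MDA-MB-231 or derived from it, and no other line was sampled. The MDA-LM2 table sets MDA-LM2 against MDA-MB-231, and the sgHNRNPC table sets sgHNRNPC against sgControl.

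The tables list sites and not levels. Each line names a proximal and a distal poly(A) site of a gene together with the authors' own comparison of that pair, which was not used here. Neither table holds a value of a single sample, so the depth of the 8 libraries and the spread between replicates are unknown, and the loss of HNRNPC RNA in the sgHNRNPC samples could not be checked. What follows describes which sites each gene lists. No statement is made on which site was used more in either group, no test was run, and a difference between genes or tables has no replicate error to be set against. Some shares of members are given with exact binomial 95% intervals. These intervals cover counting error only, and the sites of one gene are not independent.

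The spliceosome removes introns through small nuclear ribonucleoproteins, or snRNPs, each built on a short RNA with a ring of Sm or LSM proteins. The U1 snRNP recognizes the 5′ splice site, U2AF and the U2 snRNP with its SF3A and SF3B complexes recognize the 3′ splice site and the branch point, and the U4/U6.U5 tri-snRNP then joins. A poly(A) site is where a pre-mRNA is cut and given its poly(A) tail, usually downstream of the signal AAUAAA or its variant AUUAAA. A gene with several such sites can make mRNAs with 3′ untranslated regions (3′ UTRs) of several lengths, or, where a site lies in an intron, shortened transcripts. U1 snRNP is known to hold back cleavage at premature sites inside genes.

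The symbol rule takes in more than the core of the spliceosome. RBM followed by a digit is a shared name for proteins with an RNA-binding motif, and most of the 24 genes with RBM symbols are not subunits of the spliceosome. LSM14A and LSM14B act on mRNA in the cytoplasm, PRPF4B is a protein kinase, and LSM11 belongs to the U7 snRNP of histone mRNA processing. RBM26-AS1 is a long non-coding RNA, annotated on the strand opposite to RBM26 and overlapping it. U2AF1L5 is a near-copy of U2AF1, which encodes the small U2AF subunit, and neither of its 2 listed transcripts was found in the annotation used here. For the main measures, values for the 42 members without RBM symbols are therefore given beside those of all members.

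Transcript ends were placed on GRCh38, and the DNA letters around their poly(A) signals show what such a site looks like. The ends shown are examples chosen after their values were seen, namely pairs of ends within a last exon, an intronic end, and distal ends of the genes that hold an HNRNPC binding sequence. Each has 30 bases in the direction of transcription and the signal in capitals.
LSM6, proximal end, chr4:146190015-146190044, + strand: tatggacatataATTAAAacattttggagg
LSM6, distal end, chr4:146191497-146191526, + strand: catttttatggtAATAAAggactgtattat
U2SURP, more proximal end, chr3:143056809-143056838, + strand: aattagatttcaAATAAAatctgaacagaa
U2SURP, more distal end, chr3:143057612-143057641, + strand: tgctataaatatAATAAAgggttatgtaga
PRPF38B, proximal end, chr1:108701770-108701799, + strand: tagaaaaatctcATTAAAtgaattcttcta
PRPF38B, distal end, chr1:108702892-108702921, + strand: gttcaatttgcaATTAAAttctatacatgg
RBM25, intronic end, chr14:73101143-73101172, + strand: atgtcttttcaaAATAAAaagaaatcaaaa
SF3B3, chr16:70577634-70577663, + strand: attggcactcggAATAAAgcgcactattgt
PRPF4B, chr6:4064948-4064977, + strand: actgggaaactgAATAAAatatgcctctta

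The LSM6 ends lie 1489 nt apart in the canonical last exon, the proximal one with ATTAAA and the distal one with AATAAA, and both were listed in both tables. The U2SURP ends shown lie 807 nt apart, also in the last exon, and a further end without either signal lies 3072 nt downstream of them. Both ends of PRPF38B carry ATTAAA, lie 1125 nt apart, and differ between the tables, since the distal one was listed in the MDA-LM2 table alone.

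A small library of HNRNPC binding sequences had matches in 2 of the 66 genes. It holds 98 unscrambled sequences that the study selected from crosslinking and immunoprecipitation (CLIP) of HNRNPC for a reporter assay. It is not the full set of HNRNPC binding sites, which was not used here, so a gene without a match may still be bound. Of these sequences, 1 matched inside SF3B3 and 1 inside PRPF4B. SF3B3 encodes a subunit of the SF3B complex of the U2 snRNP. The stretch of each that holds its longest T run, which is U in RNA, is shown with that run in capitals. Each stretch also holds a later T run of the same length, left in lower case.
SF3B3, chr16:70574167-70574196, + strand: agttctgttttaTTTTTTaattttttaaaa
PRPF4B, chr6:4061905-4061934, + strand: gcatttgtagccaTTTTTaaaagtttttgt

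The SF3B3 sequence covers chr16:70574154-70574261 (108 nt, longest T run 6), in the last exon and 3407 nt before the only SF3B3 transcript end that was listed. SF3B3 listed 5 sites in each table, and these were the same 5, with 4 genomic positions before that end. The PRPF4B sequence covers chr6:4061851-4061979 (129 nt, longest T run 5) and ends 90 nt before the end of ENST00000490653.1, the middle of the 3 sites that PRPF4B listed and in its last exon, whereas the other listed end lies 2914 nt further downstream. The 3 sites were the same in both tables, the first being a genomic position. Sequences were searched in the bodies of the members alone, so whether they match elsewhere in the genome was not tested.

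The genes of the rule listed more poly(A) sites on average than the genes of each table at large, which spliceosome genes outside the rule did not. Members had 218 sites in the MDA-LM2 table, a mean of 3.52 per gene (SD over genes 1.58, 62 genes), against 3.06 (SD 1.39) over all 6541 genes. In the sgHNRNPC table they had 224 sites, a mean of 3.86 (SD 1.74, 58 genes), against 3.17 (SD 1.51) over all 6801 genes. The median was 3 for members and for all genes in both tables. Genes with 5 or more sites made up 21.0% of members (13 genes) and 13.3% of all genes in the MDA-LM2 table. In the sgHNRNPC table they were 27.6% of members (16 genes) and 16.3% of all genes. Members without RBM symbols averaged 3.40 and 3.89 sites, and a list of other spliceosome genes, which the rule does not match, averaged 2.89 (38 genes) and 3.05 (40 genes). Most of the members' excess was in genomic positions, of which they listed a mean of 1.81 and 2.09 per gene, against 1.39 and 1.54 over all genes. For transcript ends the means were 1.71 and 1.78, against 1.67 and 1.63. Because a gene needs at least 2 sites to be listed, genes with a single detected site are in neither table.

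**Figure D1:**
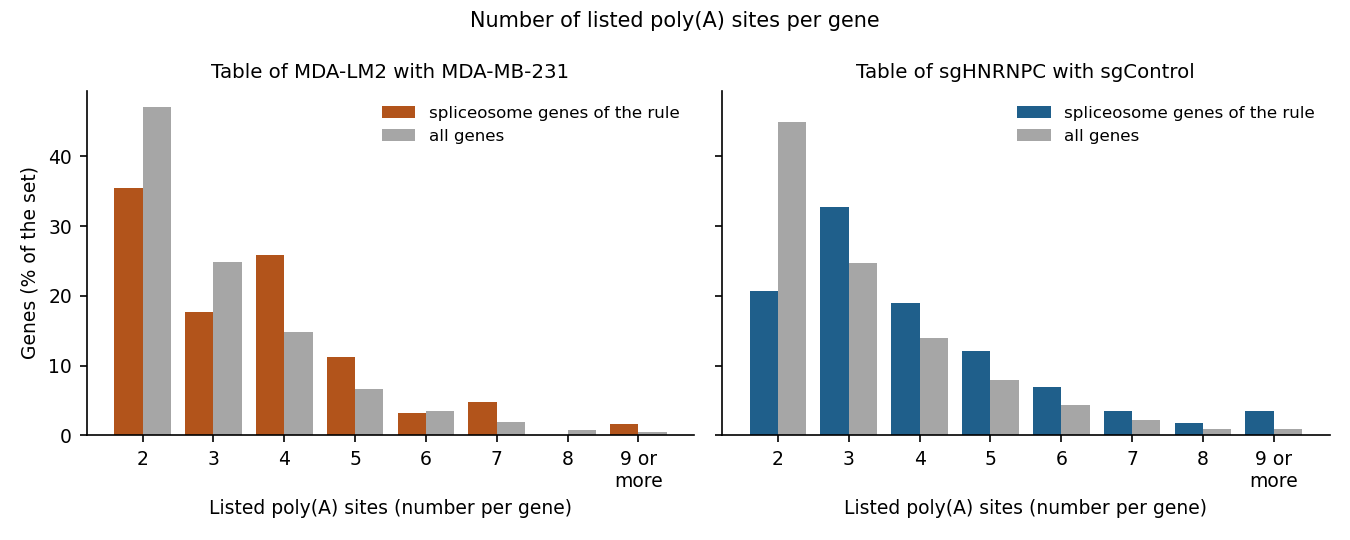
Share of genes, in percent, by number of listed poly(A) sites (2 to 8, and 9 or more), for the spliceosome genes of the rule (coloured) and all genes of the same table, members included (grey); there are no error bars because each bar is a complete count. Genes with 2 sites made up 35.5% of members in the MDA-LM2 table versus 20.7% in the sgHNRNPC table, against 47.1% and 45% of all genes. The tables do not list the same members. The 8 in the MDA-LM2 table alone had 2 sites each, and the 4 in the sgHNRNPC table alone had 2 or 3.

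Among the U1 snRNP and LUC7-like genes, LUC7L3, a homologue of a yeast U1 protein, listed the same 7 sites in both, which were 5 genomic positions flanked by a transcript end on either side. LUC7L listed 3 sites in each, and SNRPC, which encodes the U1-C protein, and PRPF40B listed 2 in each. LUC7L2 and PRPF39 had 2 sites each in the MDA-LM2 table but no line in the sgHNRNPC table.

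U2 snRNP genes had a median of 4 sites over 8 genes in the MDA-LM2 table versus 5 over 7 genes in the sgHNRNPC table. U2SURP, a U2-associated protein with an SR-related domain, listed 9 sites in both tables, the most of any member by the mean of the tables, and all 9 were shared. It was also the member with the most transcript ends, 7 of its 9 sites. Of these ends, 3 lay in inner exons, 1 in an intron and the 3 most distal in the last exon. SF3B1, the branch-point binding subunit that is recurrently mutated in cancers, listed 5 sites in the MDA-LM2 table versus 7 in the sgHNRNPC table. The 2 sites added were ENST00000414174.1, which ends in an intron, and ENST00000652738.1, which ends downstream of the canonical last exon, and both transcripts are annotated as targets of nonsense-mediated decay (NMD). SF3A1 and SF3A3 listed 4 sites in each table, SNRPB2 listed 2 in each, and RBM17, which partners U2SURP, listed 4 and 5. SNRPA1, the U2 A′ protein, was in the MDA-LM2 table alone, with 2 transcript ends.

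The U2AF genes were represented by a single gene per table. U2AF2, the large subunit that binds the polypyrimidine tract, had 2 transcript ends in the sgHNRNPC table alone. U2AF1L5 had 2 in the MDA-LM2 table alone.

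Sm core genes, whose proteins form the ring on U1, U2, U4 and U5, listed 14 sites in the MDA-LM2 table versus 17 in the sgHNRNPC table over the same 5 genes. Genomic positions made up 71.4% and 64.7% of their sites, against 51.4% and 54.0% over all members. By the mean of the tables SNRPD1 had the most, with 4 and 5 sites, and SNRPB the fewest, with 2 in each. In the MDA-LM2 table alone both ranks were tied. SNRPE and SNRPF each listed 2 genomic sites in the MDA-LM2 table to which the sgHNRNPC table added a transcript end. The genomic sites of SNRPF were 405 nt apart, the smallest spread of any member with 2 or more of them.

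Tri-snRNP genes and their partners had a median of 3 sites in both tables. PRPF38B, named for its likeness to a factor that activates the assembled complex, had 7 sites in the MDA-LM2 table versus 6 in the sgHNRNPC table. Its 5 genomic sites stood in a row 416, 451, 506 and 429 nt apart, before the transcript ends, and were the same in both tables. PRPF38A, the activating factor itself, listed the same 5 sites in both. PRPF4, PRPF4B and SNRNP27 had 3 sites in each table, PRPF18, a second-step factor, had 2 in each, and SNRNP200, the helicase that unwinds U4 from U6, had 3 and 2. PRPF3, PRPF31 and PRPF8, the large U5 protein at the catalytic centre, had 2 sites each in the MDA-LM2 table but no line in the sgHNRNPC table. A gene with fewer than 2 sites has no line, so a single site may have been detected there. RBM22, which helps to shape the catalytic core, also had 2 transcript ends in the MDA-LM2 table alone.

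LSM genes include the ring on U6 and related cytoplasmic proteins, and 5 of the 9 found in both tables differed between them in the number of sites, while 59.7% of all genes in both tables had the same number. LSM8, which marks the nuclear ring on U6, listed 5 and 6 sites, all of them genomic positions. Of its 7 distinct sites, 4 were shared, 1 was in the MDA-LM2 table alone and 2 were in the sgHNRNPC table alone. In the MDA-LM2 and the sgHNRNPC table, LSM4 and LSM6 listed 2 and 3 sites, LSM14A 4 and 5, and LSM11 4 and 3. LSM3 had 3 sites in the sgHNRNPC table alone. LSM1, LSM5, LSM12 and LSM14B had the same sites in both.

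The minor spliceosome genes RBM41, RBM48 and SNRNP48 each listed 4 sites, the same 4 in both tables. Among the other RBM genes, RBM25, a U1-associated splicing factor, had 7 and 8 sites, RBM12 had 6 and 6, and RBM39, a U2AF-related splicing factor, had 5 and 6. RBM25's added site was the intronic end shown above with its AATAAA, 25 nt before the end counted from the first base of the signal. RBM39's added site in the sgHNRNPC table was ENST00000615771.5, an NMD transcript, and 3 of its 4 listed transcript ends belong to NMD transcripts. RBM12B listed 5 and 3 sites, and RBM4 and RBM26-AS1 were in the sgHNRNPC table alone, each with 2 sites.

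**Figure D2:**
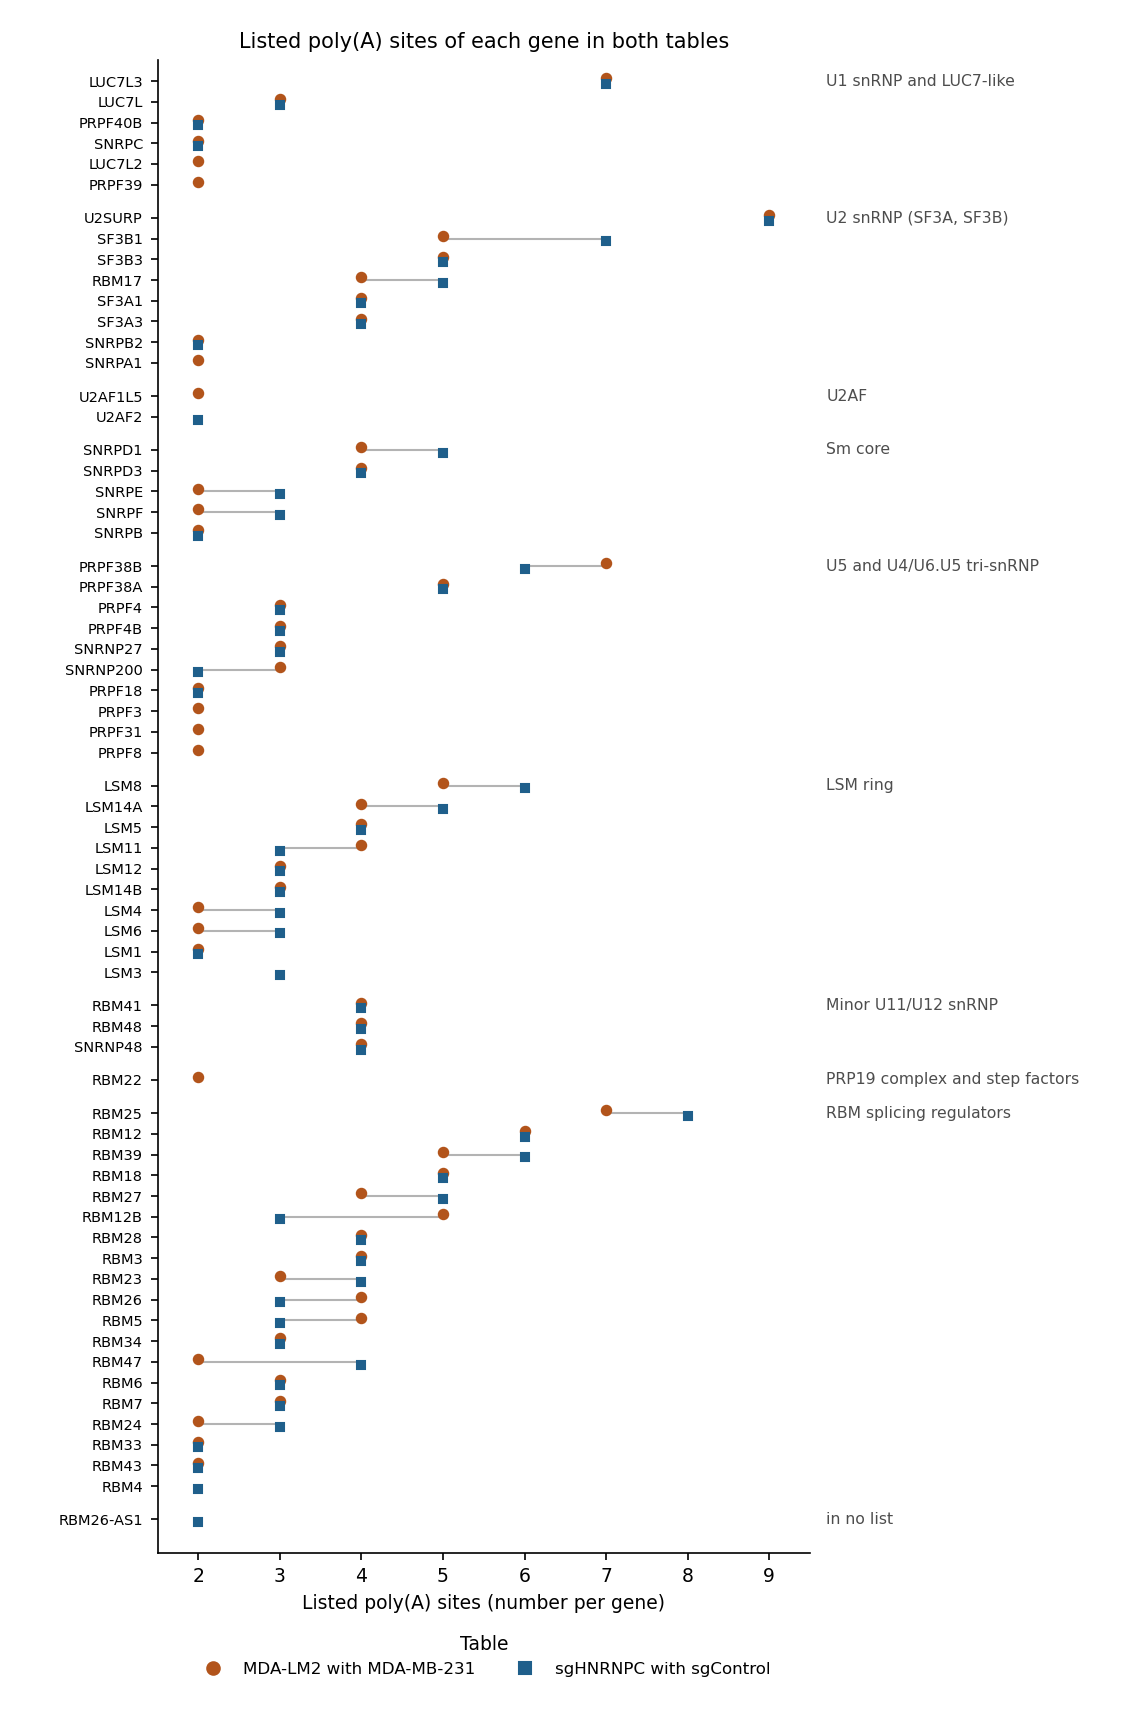
Number of listed poly(A) sites of 65 of the 66 genes (horizontal axis, number per gene) in the MDA-LM2 table (circles) and the sgHNRNPC table (squares), grouped by role; a grey line joins the values of a gene, and a missing symbol means no line in that table. U2SURP has 9 sites in both tables and SF3B1 spans 5 to 7.

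Most sites were common to the tables. Of the 250 distinct sites of members, 192 were listed in both tables. They were 88.1% of the members' sites in the MDA-LM2 table (95% interval 83.0 to 92.1) compared with 85.7% in the sgHNRNPC table (80.4 to 90.0), against 84.5% and 78.5% for all genes. Over the 54 members in both tables the shares were 95% (91.1 to 97.6) and 89.3% (84.4 to 93.1), against 91.5% and 87.0% for the 5838 genes in both. The list of sites was identical in 30 of these 54 members (55.6%, against 53.3% of all genes in both). It was identical in 63.6% of the 33 members without RBM symbols and in 42.9% of the 21 with them. More sites were listed in the sgHNRNPC table by 16 members (29.6%) and in the MDA-LM2 table by 6 (11.1%), and the same number by 32. Over all genes in both tables the corresponding shares were 25.3%, 15% and 59.7%, so the members lay close to the tables at large. Why a site appears in one table and not in the other was not tested, and the rule by which the authors kept sites is not given in the sources used here.

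Differences between the tables came from both kinds of site. Among members in both tables, 23 sites were listed in the sgHNRNPC table alone, of which 9 were transcript ends and 14 genomic positions, and 10 in the MDA-LM2 table alone, of which 4 were transcript ends and 6 genomic positions. Over all genes in both tables these were 800 transcript ends and 1737 genomic positions in the sgHNRNPC table alone, and 866 and 718 in the MDA-LM2 table alone. In RBM47, chosen after its values were seen, the 2 added sites of the sgHNRNPC table were genomic positions 432 nt apart, placed before both transcript ends. In RBM12, which listed 6 sites in each table, each table listed 1 genomic position that the other did not.

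**Figure D3:**
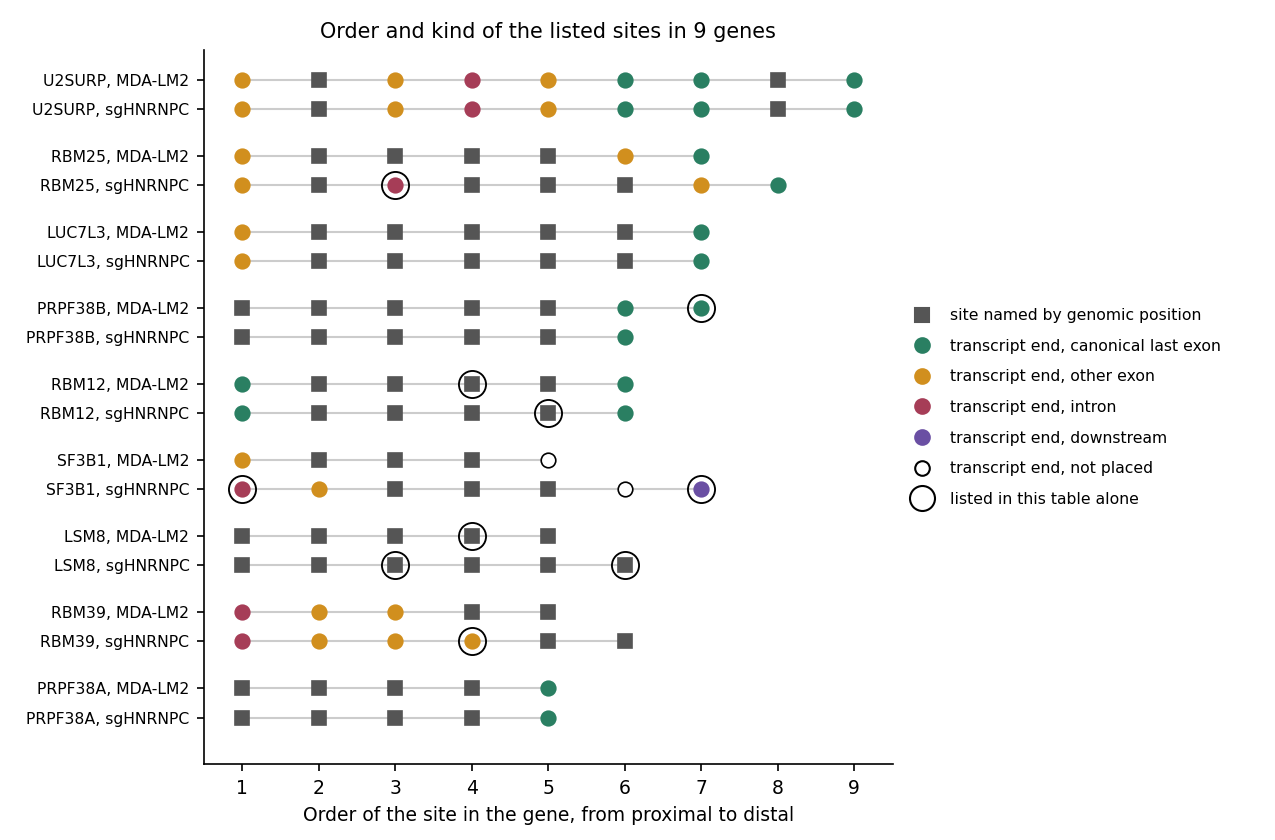
Sites of 9 of the 10 members with the most sites, in order from proximal to distal (horizontal axis, place in the gene), with 1 row per gene and table. Squares are sites named by genomic position, filled circles are transcript ends coloured by where they lie on the canonical transcript, open circles are transcript ends not found in the annotation used here, and a ring marks a site listed in that table alone. U2SURP, LUC7L3 and PRPF38A have no ringed site.

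A site was named either by a transcript, whose 3′ end it marks, or by a genomic position. Transcript ends were 106 of the members' 218 sites in the MDA-LM2 table, or 48.6% (41.8 to 55.5), and 103 of 224 in the sgHNRNPC table, or 46.0% (39.3 to 52.7). Members without RBM symbols had 49.3% and 45.6%. Over all genes the shares were 54.6% and 51.3%, and over the other spliceosome genes 63.6% and 58.2%. Both kinds were listed by 43 and 46 members, transcript ends alone by 12 and 6, and genomic positions alone by 7 and 6. Members with both kinds were thus 69.4% and 79.3%, against 69.4% and 73.2% of all genes, and those with transcript ends alone 19.4% and 10.3%, against 25.4% and 22.5%. In members with both kinds, the most distal site was nearly always a transcript end. It was a genomic position in 4 of 43 in the MDA-LM2 table (RBM7, RBM17 and RBM39 among them) and in 2 of 46 in the sgHNRNPC table (RBM17 and RBM39), or 9.30% (2.59 to 22.1) and 4.35% (0.531 to 14.8), against 8.28% and 5.25% over all genes. RBM7 and RBM17 fall outside the rule by which genes were named and were chosen after their values were seen.

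The genomic positions are not those of GRCh38, although the submitters' processing notes name hg38. Of the 129 distinct genomic positions of members, 7 fell inside their own gene in the GRCh38 annotation, as did 11.7% of all 11627 that were listed. No position was converted, and only distances between positions were used. The order in the proximal and distal columns was checked on its own. It gave a complete order for each of the 62 and 58 members, and all 5365 and 4960 pairs of placed transcript ends in the tables ran in their GRCh38 order, while 3 pairs of genomic positions in each table ran against their own. In each of the 38 and 43 members with a pair made of a placed transcript end and a genomic position, all such pairs could be met by a single shift between the builds. Only in 19 and 20 of them was that shift bounded on both sides, so for the others this check could not have failed.

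Neighbouring genomic sites of members were at least 405 nt apart. Their median distance was 938 nt over 62 distances in the MDA-LM2 table versus 554 nt over 69 in the sgHNRNPC table, against 880 and 791 nt for all genes. The MDA-LM2 value depended on the RBM genes. Without them the median was 540 nt, below that of all genes, and the RBM members alone had 1168 nt, whereas in the sgHNRNPC table members without RBM symbols had 534 nt and RBM members 900 nt. Distances of up to 600 nt were 46.8% and 52.2% of the members' distances (55.3% and 55.8% without RBM symbols), against 36.1% and 39.5% over all genes and 56.2% and 59.1% over the other spliceosome genes, whose medians were 542 and 512 nt over 16 and 22 distances. Very few of the members' distances fell between 600 and 800 nt, 0 and 1, against 10.4% and 10.9% over all genes. Below 400 nt there were 11 of 4220 distances over all genes in the MDA-LM2 table versus 8 of 5234 in the sgHNRNPC table. How the authors chose genomic positions, and whether they merged close ones, is not given in the sources used here.

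RBM26 and U2SURP had the widest spread of genomic sites. In RBM26 the most proximal site of the MDA-LM2 table lay 50662 nt before the next, and the spread was 51618 nt. The sgHNRNPC table did not list that site, and there the spread was 956 nt over 3 sites. The genomic sites of U2SURP lay 37521 nt apart in both tables, those of RBM27 spanned 19694 nt, those of RBM17 11783 nt, those of RBM25 11242 nt, those of SF3B1 9636 nt and those of LUC7L3 9593 nt, the same in both tables. RBM27 was chosen after its values were seen. LSM8's spanned 3546 and 4039 nt and RBM12's 3460 and 4005 nt.

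**Figure D4:**
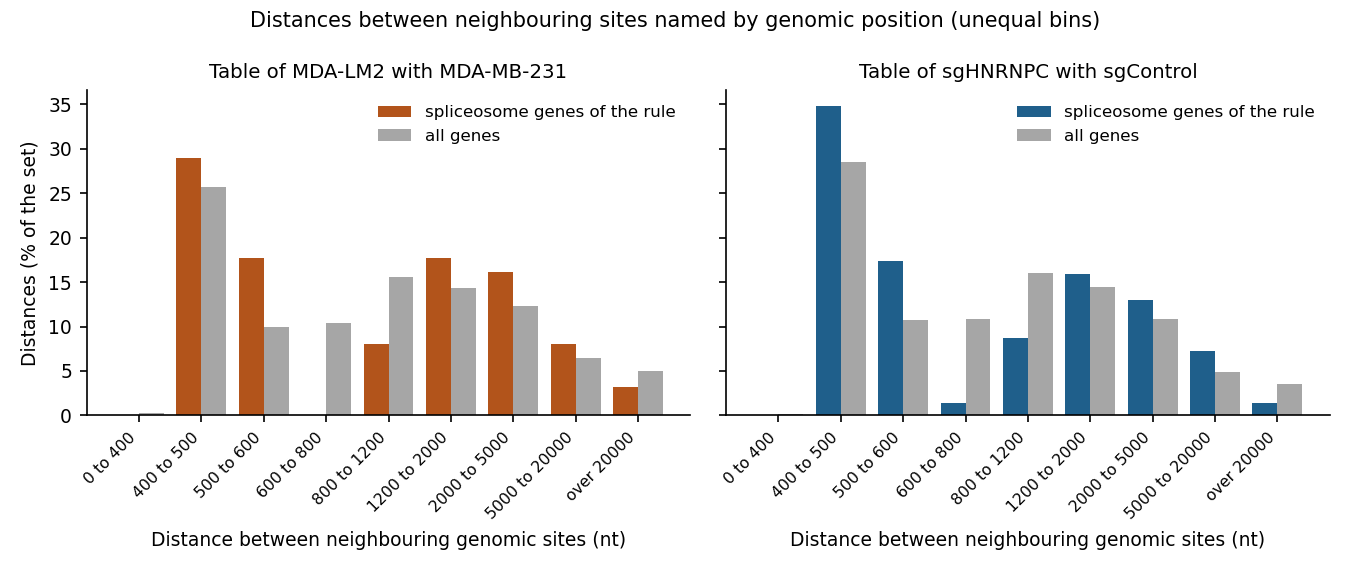
Distances between neighbouring genomic sites of a gene, in nt and in unequal bins, as a percentage of all such distances, for the spliceosome genes of the rule (coloured) and all genes of the table, members included (grey). In both tables the members' distances are most often 400 to 500 nt (29.0% and 34.8%), and none is under 400 nt.

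Transcript ends were placed by identifier and version, which succeeded for 96 of the 106 listed in the MDA-LM2 table, while 93 of 103 were placed from the sgHNRNPC table. For each gene, the place of an end was read on the canonical transcript, the one that the annotation names as representative. Ends outside its last exon were 41.7% (31.7 to 52.2) and 41.9% (31.8 to 52.6) of the members' placed ends, against 34.3% and 30.2% over all genes and 37.3% and 32.4% over the other spliceosome genes. Among members without RBM symbols they were 39.0% and 39.6%, and among those with them 45.9% and 45%. Most ends outside the last exon lay in an inner exon. These were 32.3% of the members' placed ends in each table, against 25% and 20.4% over all genes. Over the other spliceosome genes they were 37.3% and 32.4%. Ends in an intron were 6 and 5, and ends downstream of the last exon 3 and 4. The all-gene shares lie inside the members' interval in the MDA-LM2 table but just below it in the sgHNRNPC table. Each interval treats ends as independent, which the ends of one gene are not.

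Part of the inner ends belong to incomplete or unproductive transcripts. Over both tables together, 14 of the 108 placed ends of members came from transcripts marked as having an incomplete 3′ end, and 13 of these 14 lay outside the last exon. Such an end is where the evidence for the transcript stopped and need not be a cleavage site. Transcripts annotated for NMD made up 12.5% (6.63 to 20.8) and 15.1% (8.48 to 24) of the members' placed ends, against 9.25% and 8.95% over all genes and 11.9% and 15.1% over members without RBM symbols. Those with a retained intron made up 15.6% and 10.8%, against 12.2% and 11.1% over all genes. Over the other spliceosome genes, NMD transcripts made up 13.4% and 10.3% of placed ends, and those with a retained intron 17.9% and 13.2%. Over both tables together, NMD or retained-intron ends occurred in 19 of the 56 members with a placed end, or 33.9%, against 29.2% of 6785 genes. U2SURP, SF3B1, RBM25 and RBM39 were among the 19, and members had more placed ends per gene, 1.93 against 1.71.

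**Figure D5:**
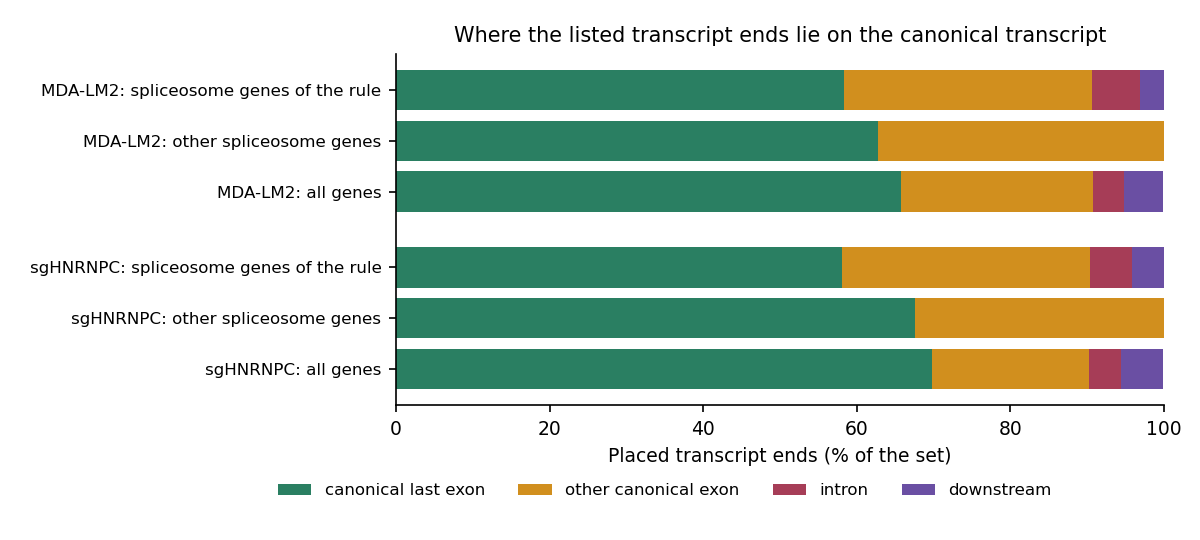
Place of the listed transcript ends on the canonical transcript of their gene, as a percentage of placed ends (stacked to 100%), for the spliceosome genes of the rule, other spliceosome genes and all genes in each table. The last exon holds 58.3% and 58.1% of the members' ends, against 65.7% and 69.8% over all genes. Ends upstream of the canonical transcript, which occur among all genes only, are not drawn.

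AATAAA or ATTAAA was searched on the transcript strand in the last 50 nt of each placed end. It was present at 44.8% (34.6 to 55.3) of the members' ends in the MDA-LM2 table and 44.1% (33.8 to 54.8) in the sgHNRNPC table, against 48.7% and 52.0% of all placed ends. Without RBM symbols the shares were 47.5% and 47.2%. The presence of the signal followed the place of the end. In the last exon 67.9% and 64.8% of the members' ends had it, close to the 64.8% and 65.5% over all genes, and elsewhere 12.5% and 15.4% had it, against 18% and 20.9%. AATAAA was at 29.2% and 31.2% of the members' ends, against 39.0% and 41.5% over all genes and 28.4% and 30.9% over the other spliceosome genes. ATTAAA alone was at 15.6% and 12.9%, against 9.67% and 10.5% over all genes and 8.96% and 13.2% over the other spliceosome genes. Over both tables together, 48 of 108 ends of members carried a signal, 31 of them AATAAA and 17 ATTAAA alone. From the first base of the signal to the last base of the transcript, both counted, the median was 24 nt (range 7 to 45). Of the 32 canonical transcripts whose end was listed and placed, 26 had a signal, against 82.7% of 3577 over all genes. Of the 15 NMD ends 2 had a signal, against 29.2% of 1064 over all genes. Of the 15 retained-intron ends 4 had a signal, against 28.6% of 1393. Of the 14 ends marked incomplete 2 had a signal, against 6.33% of 1359. A match is a description of these letters and was not tested as a functional signal.

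Runs of U, the kind of sequence that HNRNPC is known to bind, were searched as TTTTT on the transcript strand within 100 nt on either side of each placed end. A run was present at 57.3% (46.8 to 67.3) of the members' ends in the MDA-LM2 table and 58.1% (47.4 to 68.2) in the sgHNRNPC table, against 52.0% and 53.5% of all placed ends. Members without RBM symbols had a run at 66.1% and 66.0% of their ends and members with RBM symbols at 43.2% and 47.5%. Over the other spliceosome genes the shares were 53.7% and 54.4%. Runs of at least 6 were present at 33.3% and 32.3% of the members' ends, against 25.8% and 26.7% of all placed ends, and at 40.7% and 39.6% without RBM symbols. At least 1 end with a run of 5 was listed in either table by 42 of the 56 members with a placed end, or 75%. The share was 67.9% of 6785 genes and 80.0% of 40 other spliceosome genes. The mean number of placed ends was 1.93 per member, 1.71 per gene and 1.95 per other spliceosome gene. In U2SURP 5 of 7 ends had a run and in SF3B1 2 of the 3 placed ends. Being near a run says nothing on whether HNRNPC was bound there.

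Some ends share most of their sequence with other genes. More than 50% of the stretches of 31 nt in the last 300 nt of a transcript were found in transcripts of another gene for 5 of 96 placed ends in the MDA-LM2 table versus 4 of 93 in the sgHNRNPC table, or 5.21% and 4.30%, against 6.42% and 6.34% over all genes. They belong to LUC7L2, RBM3, RBM28 and RBM34. The end of ENST00000541170.7 of LUC7L2 shared 100% with the read-through gene FMC1-LUC7L2. RBM3, a cold-induced RNA-binding protein, shared 100% at its canonical end with an unnamed gene. RBM34 shared 100% at 1 end with its neighbour ARID4B and 73.3% at the other with several genes, and RBM28 shared 71.1% at its canonical end with several genes. Reads at these ends are uncertain in their gene of origin.

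The canonical 3′ UTR had a median length of 1900 nt over 61 members in the MDA-LM2 table versus 2606 nt over 57 in the sgHNRNPC table, against 2104 and 2100 nt over all genes. Each gene has a single canonical 3′ UTR in the annotation. The medians therefore differ between the tables only through which genes each lists, and say nothing on which 3′ UTR was used. Members with RBM symbols had a median of 3164 nt in both tables and members without them 1369 and 1880 nt. RBM28, with the longest canonical 3′ UTR of any member at 13112 nt, listed 4 sites in each table, LSM8, with 12033 nt, listed 5 and 6, and U2SURP, with 4275 nt, listed 9.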

How the data were processed

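RNA of 8 samples was made into libraries with QuantSeq 3′-end kits. According to the methods and the submitters' processing notes, the authors counted reads with Salmon 0.14.1 on unique transcript 3′ ends of Gencode release 33, and the notes also name UMI-tools and hg38. The build of the genomic positions and the filter on sites are not given in the sources used here. The authors deposited 2 tables of pairs of sites. Their numeric columns hold the authors' own comparison (log ratio, P and adjusted P) and were not used. The site names have no unit. The depth per sample is unknown.

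Sites were taken from the proximal and distal columns and ordered by them. Transcript ends were placed with GENCODE release 44 on GRCh38, where the sequences shown were read. Shares have exact (Clopper-Pearson) 95% intervals. Python 3.11.15, pandas 2.3.3, numpy 2.4.6, scipy 1.17.1 and matplotlib 3.10.9 were used, and the functions were tested on simulated data. Alternatives covered merging distance (24 nt), kinds of site, members, versions, windows, signals and runs.

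The rule for the members and the role lists were chosen with earlier results of these data known. Genes named are up to 10 members with the most sites, up to 10 with the most sites in a single table, members in a single table, those with a CLIP-derived sequence, those with the widest and narrowest spread, those with over 50% shared sequence, and the extremes of each role list. For 1 member, counted in all totals, no result of its own is reported here. Other genes stand only as members of their role list or as stated.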

Additional observations from a re-analysis of the deposited data

How the results depend on the processing

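The results rest on site lists. The depth behind them is unknown, and its part in which sites were listed was not tested. No paired analysis was possible because neither table has a value for any replicate. For the same reason the planned fit of site usage was not run. Of 34 alternatives, 22 stayed close to the value reported, judged by its interval or by their ratio, and 12 did not. The mean number of sites per member was 1.71 and 1.78 in the MDA-LM2 and sgHNRNPC tables with transcript ends only, and 1.81 and 2.09 with genomic positions only. The share of sites in both tables was 95% in the MDA-LM2 table over members in both. A signal was found at 29.2% and 31.2% of ends with AATAAA alone. A U run was found at 33.3% and 32.3% of ends when at least 6 long, and at 38.5% and 37.6% within 50 nt. The median distance between members' genomic sites in the MDA-LM2 table was 540 nt without RBM symbols, an alternative chosen after seeing the data. Apart from the median distance, these moves follow from the alternatives' own construction. Each of those alternatives counts fewer kinds of site, signal or run, or leaves out genes found in a single table. Leaving out RBM symbols need not lower the median distance, and in the sgHNRNPC table it gave 534 nt against 554 nt. Of the 22, the 4 that merged genomic sites within 24 nt or dropped shorter distances could not move any value, since members' sites were at least 405 nt apart, and say nothing on stability.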
